A study of Mus musculus with 12 samples.

Results

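The skin of mice 6 h after an injection of RNAdjuvant was compared with untreated mouse skin across all genes that the array platform names. RNAdjuvant, which is given with vaccines to strengthen the immune response, combines a cationic peptide with an RNA that codes for no protein. The members were 6 of the 12 arrays in the series: 3 from skin biopsies taken 6 h after intradermal injection and 3 from skin that received no treatment. The other 6 arrays, 3 at 1.5 h and 3 at 24 h after injection, entered the estimate of the spread and served as neighbouring times. The animals in each group were female Balb/c mice, and the labels call the 3 samples of a group biological replicates, so p-values measure the spread between such samples. The labels write the dose as 25 mg, a unit that was not checked here. The controls were not injected, so the needle, the fluid and the peptide cannot be told apart from the RNA in this comparison, and a carrier injection was not analysed here. The sources used here do not give the age of the mice, the body site, the clock time of the biopsies or the order in which arrays were run. Biopsies were kept in RNAlater, and RNA was amplified before it was hybridised to Affymetrix Mouse Gene 1.0 arrays.

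Foreign RNA is sensed in endosomes by Toll-like receptors and in the cytosol by RIG-I-like receptors. Both routes switch on NF-kB, which drives cytokine and chemokine genes, and interferon regulatory factors, which drive interferon beta. Secreted interferon then acts on neighbouring cells through JAK kinases and a complex of STAT and IRF proteins that binds an element in the promoters of many antiviral genes. In skin the cells that can answer are keratinocytes, fibroblasts, endothelium, resident macrophages, dendritic cells and the leukocytes that arrive from blood.

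Each array gave 1 value on a log2 scale for each of 35556 probe sets, from 0.65 to 14.11. After probe sets without exactly 1 gene symbol were left out and 1 probe set was kept per gene, 19938 genes were tested with limma, and a gene is said to have risen or fallen where its Benjamini-Hochberg adjusted p was under 0.05. At 6 h, 674 genes were higher (3.38% of all genes tested) and 541 were lower (2.71%). The rises were much larger than the falls: 298 of the rises reached 2-fold, 133 reached 4-fold and 42 reached 10-fold, against 27, 4 and 1 of the falls. The median change of all genes was -0.04 on the log2 scale. In 30.8% of all genes the 3 arrays of one group lay wholly above or below the 3 of the other, and 4616 genes had an unadjusted p under 0.05. The number of falls was the less stable of the counts. It dropped to 214, 326 and 218 without untreated replicates 1, 2 and 3, and to 227 and 251 without 6 h replicates 2 and 3, while the number of rises stayed between 494 and 706 over the 12 fits that each left out 1 array. With cyclic loess scaling the split was 699 higher and 308 lower. Falls outnumbered rises with arrays centred on their medians (576 higher, 613 lower), without dim probe sets (592 and 854) and with array weights (811 and 892). In each other setting tried the rises were the more numerous.

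**Figure D1:**
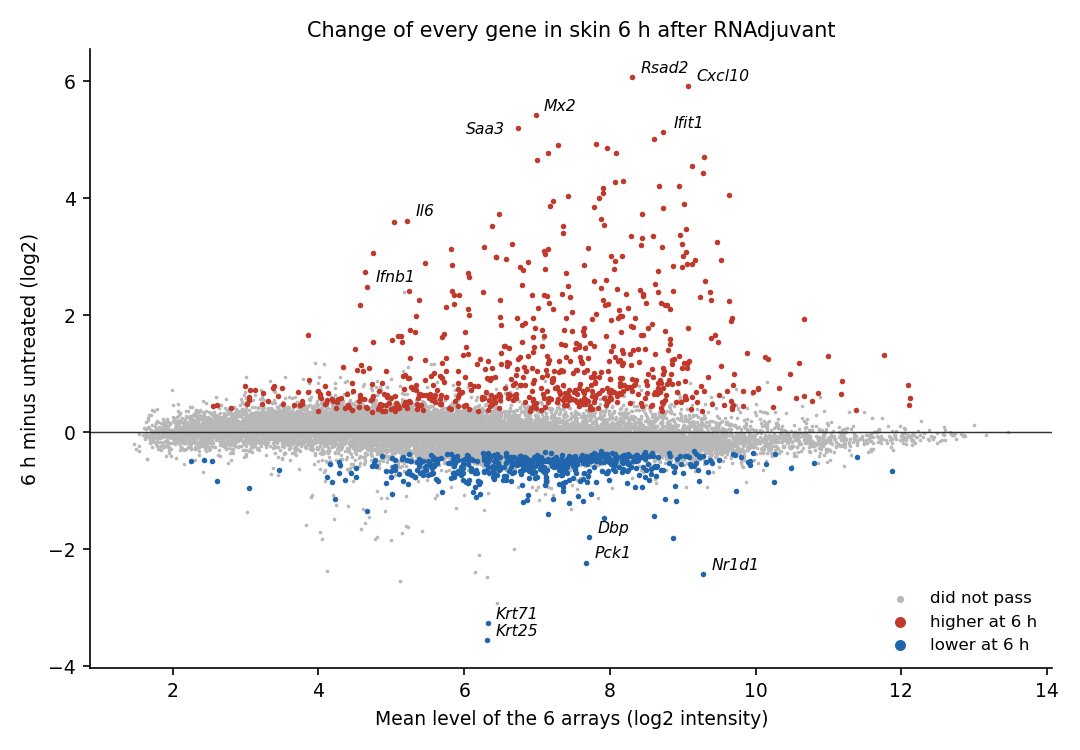
Change at 6 h (log2, 6 h minus untreated, vertical axis) of each of the 19938 genes against its mean log2 value over the 6 arrays (horizontal axis). Coloured points are the genes that passed limma's adjusted p of 0.05. The points far from 0 lie above it, with Rsad2 at 6.07 the highest, while the lowest are Krt25 at -3.55 and Krt71 at -3.26.

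Of the 6 arrays compared, 6 h replicate 1 and untreated replicate 2 stood apart from their groups. Their values are given here before the results that they touch. On 6 h replicate 1, genes of glandular epithelium, B cells and lymph node were high. Glycam1, a mucin-like protein of lymph node vessels that is also made by mammary gland, read 10.88 there against 4.01 and 4.24 on 6 h replicates 2 and 3 and 3.87 to 4.07 in untreated skin. The median of the 15 glandular genes on that array was 1.42 above the untreated mean, against 0.10 and -0.02 on the other two, and that of 13 B and plasma cell genes 1.43 against 0.05 and 0.11. On untreated replicate 2, the 28 hair follicle genes had a median 0.91 above the mean of the untreated group, against -0.55 and -0.37 on the other two. By the summed levels of the lists (log2), 1.5 h replicate 1 was also high, at 12.03 for lymph node and 9.88 for B and plasma cells. The other 1.5 h arrays read 8.98 and 9.44, and 8.24 and 8.25. The glandular sum was 11.17 to 12.17 at 1.5 h and 11 to 11.51 at 24 h, against 10.02 to 10.07 in untreated skin. On the 6 h arrays it was 12.11, 10.06 and 10.07. What these arrays add to the results was not tested beyond fits without each of them. Skin markers were high on each array: Krt10, a keratin of the upper epidermis, read 12.39 to 12.67, Krt14, a keratin of its basal layer, 11.08 to 11.65, and the collagen gene Col1a1 9.87 to 10.93. In a biopsy, a change in the number of cells of a type and a change in RNA per cell cannot be told apart.

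**Figure D2:**
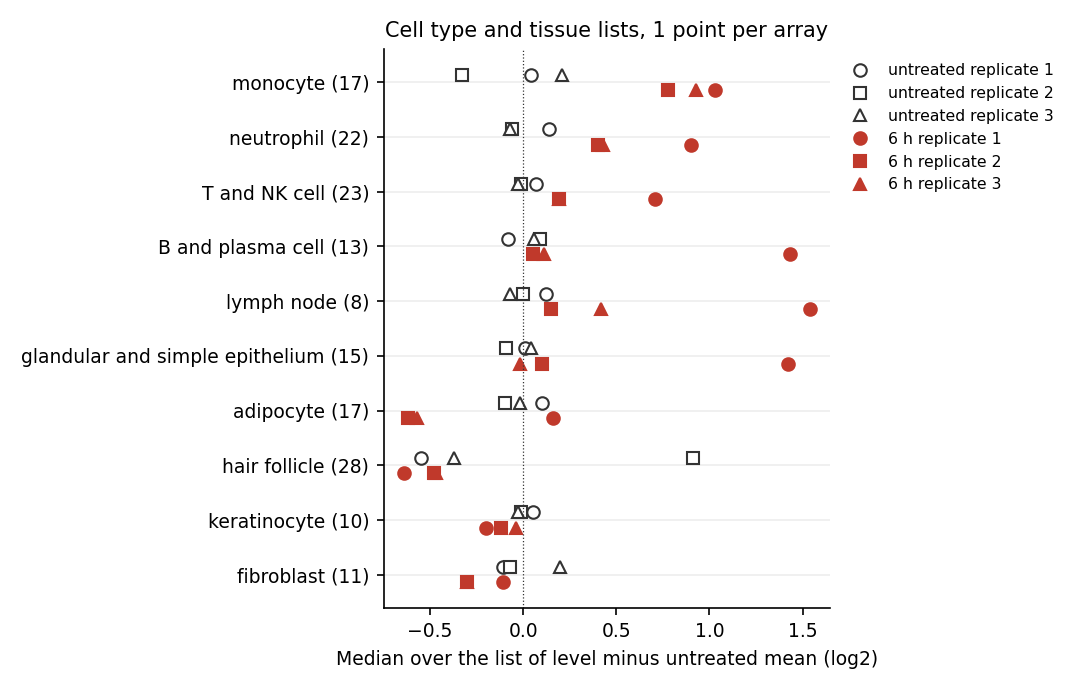
Median over each list of the log2 value minus the untreated mean of the gene (horizontal axis), 1 point per array, for 10 cell type and tissue lists. Open symbols are untreated and filled symbols 6 h arrays, with 1 shape per replicate number. The monocyte, neutrophil, T and NK cell and lymph node lists are higher on each 6 h array than on each untreated array, and the keratinocyte list is lower. The glandular, B cell and lymph node lists are highest on 6 h replicate 1, at 1.42, 1.43 and 1.54. On 6 h replicates 2 and 3 the lymph node list is at 0.15 and 0.42.

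Interferon beta was the 1 of 15 measured interferon genes that rose. Ifnb1, which encodes it, read 3.32, 3.59 and 3.35 on the untreated arrays and 5.89, 5.96 and 5.87 on the 6 h arrays. The groups were far apart, and the difference was 2.49 on the log2 scale (SE 0.16), or 5.6-fold, with a limma adjusted p of 2.82e-07. It had been higher earlier: the mean was 7.77 at 1.5 h, and the change from there to 6 h was -1.86 (adjusted p = 5.91e-06). Of the interferon alpha genes, Ifna4 had the largest change, from 3.33 ± 0.04 (SD, n = 3) to 4.24 ± 0.33 (n = 3), which did not pass (adjusted p = 0.0994). Interferon alpha genes are near-identical copies, so their probe sets may pick up one another. Ifng, the gene of interferon gamma, changed by 0.51 and did not pass.

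Of 15 genes of the interferon receptor and JAK-STAT list 3 rose and none fell, and those that rose were signalling proteins. Stat2, a DNA-binding partner of the interferon complex, rose from 7.46 ± 0.11 (SD, n = 3) to 9.85 ± 0.23, a 5.23-fold difference (adjusted p = 2e-07). Jak2, a kinase of several cytokine receptors, rose 1.93-fold (adjusted p = 0.000186), and Stat3, which carries signals of the IL-6 family, changed by 0.69 and passed too. The receptor subunits Ifnar1, Ifnar2, Ifngr1 and Ifngr2 changed by -0.14, 0.30, -0.16 and -0.13, and none passed.

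Interferon regulatory factors are the transcription factors that start and prolong the response, and 6 of 8 rose. Irf7, the amplifier of interferon alpha and beta, read 7.02, 6.55 and 6.76 in untreated skin and 10.40, 9.82 and 10.07 at 6 h. No array of one group reached the other, and the difference was 9.99-fold (adjusted p = 3.97e-07). Irf1 rose 4.62-fold from 7.39 ± 0.02 (SD, n = 3) to 9.60 ± 0.17, while Irf9, the DNA-contacting part of the STAT complex, rose by 1.19 on the log2 scale, Irf2 by 1.16 and Irf8, a factor of monocytes and dendritic cells, by 1.06. Irf3, which is held ready as protein before infection, changed by -0.05 and did not pass. Irf4, a factor of lymphocytes and some dendritic cells, was the 1 member that fell, by 0.76 on the log2 scale (adjusted p = 0.0228, and 0.00896 to 0.0953 over the fits without 1 array). That call was lost without untreated replicate 3, 6 h replicate 2 or 6 h replicate 3.

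Type I interferon switches on a set of antiviral effectors. Of 57 measured type I interferon-stimulated effectors, 55 rose and none fell, against 3.38% of all genes that rose, and the median change of the list was 2.36 against -0.04 for all genes. The call of 54 of the 55 was kept without each of the 12 arrays in turn. Rsad2 encodes viperin, a radical enzyme that makes a chain-ending nucleotide against viral polymerases. It read 5.39, 5.40 and 5.03 in untreated skin and 11.21, 11.33 and 11.49 at 6 h. This was the largest rise on the arrays, 67.3-fold (log2 difference 6.07, SE 0.25, adjusted p = 7.69e-09). Cmpk2, its neighbour in function and a nucleotide kinase of mitochondria, rose by 4.93.

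Ifit1, which binds viral RNA that lacks the host cap, rose from 6.01, 6.20 and 6.30 to 11.33, 11.44 and 11.13 (34.9-fold, adjusted p = 4.27e-09), and its relatives Ifit2 and Ifit3 rose by 5.01 and 4.44. The dynamin-like GTPases Mx1 and Mx2 rose by 4.92 and 5.42. Mx2 read 4.28, 3.99 and 4.54 in untreated skin against 9.69, 10.08 and 9.29, again with a wide gap between the groups. Enzymes that read double-stranded RNA rose as well: the oligoadenylate synthetases Oas1a, Oas2 and Oas3 by 2.93, 2.45 and 3.14, the related Oasl1 and Oasl2 by 4.22 and 3.02, and Eif2ak2, the kinase that halts translation, 6.92-fold. Usp18, which strips ISG15 from proteins and restrains the interferon receptor, rose 14.4-fold from 6.81 ± 0.09 (SD, n = 3) to 10.65 ± 0.18. Bst2, or tetherin, which holds budding virus at the cell surface, rose 4.77-fold. Ifitm2 and Ifi27 were the members that did not pass, with changes of 0.35 and 0.26.

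Some promoters of this group hold the element that complexes of STAT and IRF proteins read. Stretches of 2 of them, of Rsad2 and Ifit1, were chosen because they hold it and are printed below, from RefSeq on build GRCm38.p6, a C57BL/6J reference and not the Balb/c strain of the mice. Capitals mark the interferon-stimulated response element, searched as GAAANNGAAA on both strands. The Rsad2 stretch is chr12:26456543-26456592 on the minus strand, 140 to 91 bases before the start of the gene, and the Ifit1 stretch is chr19:34640765-34640833 on the plus strand, 124 to 56 bases before the start.
Rsad2: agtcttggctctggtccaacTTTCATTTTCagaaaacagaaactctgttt
Ifit1: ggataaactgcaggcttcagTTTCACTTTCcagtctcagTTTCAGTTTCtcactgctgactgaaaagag
In both, the capitals spell the element on the opposite strand, and the Ifit1 stretch holds 2 copies. Over the 250 bases before the start, the element was in 2.98% of all 32851 RefSeq promoters of the table and in 2.86% of those of the genes tested. It was in 71 of 661 promoters of the genes that rose (10.7%), in 34 of 112 of those that rose at least 4-fold (30.4%) and in 5 of 541 of those that fell (0.924%). A gene may have several promoters in the table or none. Those counted belong to 528 of the 674 genes that rose, 96 of the 133 that rose at least 4-fold and 436 of the 541 that fell. Mx1, Mx2 and Ccl2 had none. In the nearer 100 bases the shares were 0.983% of all promoters, 0.907% of those of the genes tested, 6.20% of those that rose and 0.185% of those that fell. Of the effector list, 14 of 56 promoters held it (25.0%). A match describes letters in a window and shows no binding, and a promoter without one may hold a variant that was not searched.

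Another family, the interferon-inducible GTPases that attack the vacuoles of microbes, rose in each of the 8 members measured, of 17 listed. The median change was 3.29, and each call was kept without each array in turn. Gbp5, a guanylate-binding protein that also promotes inflammasome assembly, read 5.85, 5.92 and 5.76 in untreated skin and 9.69, 9.85 and 10.02 at 6 h. The groups did not overlap, and the difference was 16.1-fold (adjusted p = 5.37e-08). Iigp1 and Irgm1, of the immunity-related GTPases, rose by 3.48 and 3.36, and Gbp8, the smallest riser of the list, by 2.40. Members of these families lie in clusters of similar genes, so their probe sets may pick up one another.

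Sensors of foreign nucleic acid include the proteins that read RNA in the cytosol and the Toll-like receptors of endosomes. Of 34 sensors and adaptors, 17 rose and none fell, and 15 of the 17 calls were kept without each array in turn. Ifih1, or MDA5, a sensor of long double-stranded RNA, rose from 7.47, 7.48 and 7.57 to 10.58, 10.68 and 10.52 (8.50-fold, adjusted p = 4.27e-09), with little spread in either group. Ddx58, or RIG-I, the sensor of RNA ends, rose 6.75-fold, and Dhx58, their helper LGP2, 11.6-fold. Zbp1, which senses Z-form nucleic acid and can trigger necroptosis, rose by 3.37. Among Toll-like receptors, Tlr3 rose 5.52-fold, Tlr9 by 1.64 and Tlr2 by 1.03, whereas Tlr7 and Tlr8, the receptors of single-stranded RNA, changed by 0.48 (adjusted p = 0.242) and 0.23 and did not pass. Of the adaptors, Myd88 rose by 1.43 and Sting1 2.29-fold, while Mavs, Ticam1 and Traf6 changed by -0.29, -0.18 and -0.14 and did not pass.

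**Figure D3:**
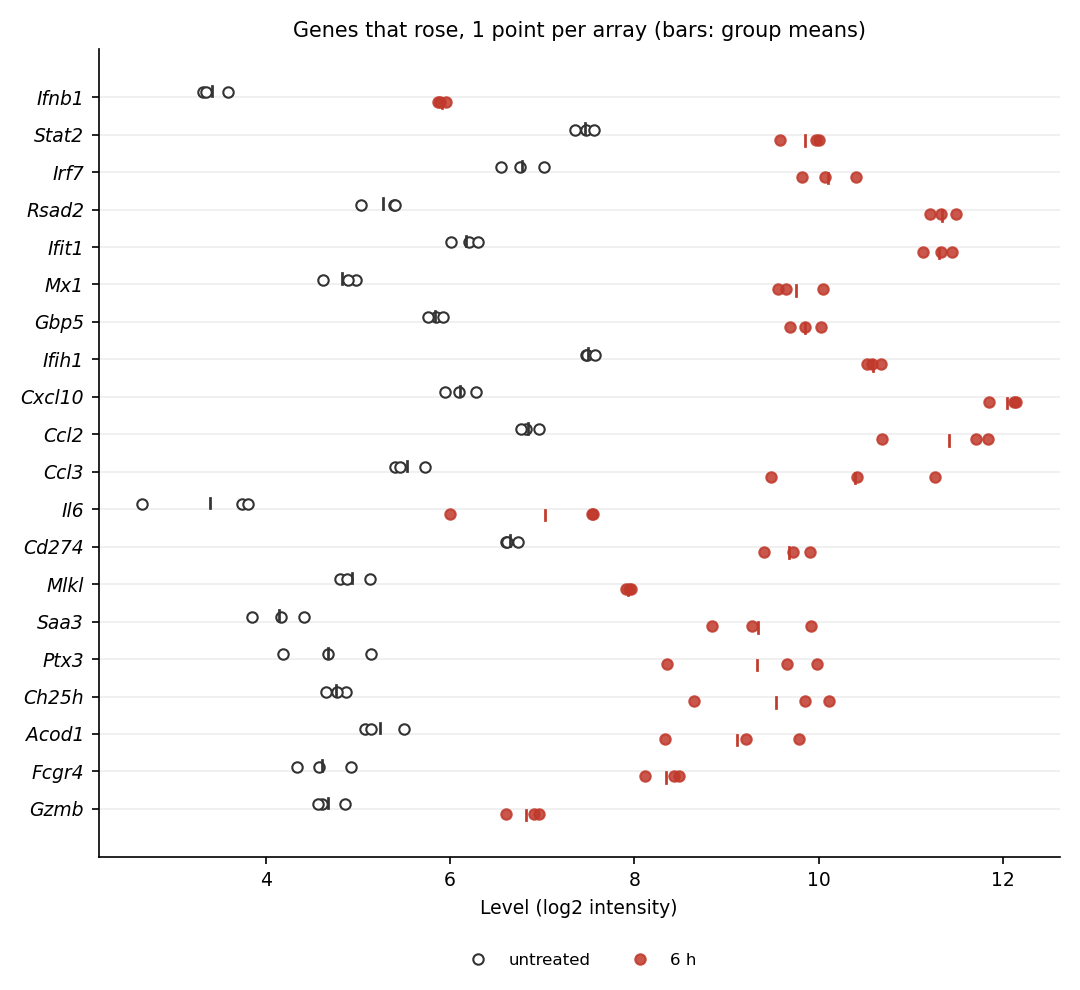
Log2 value of 20 genes that rose, from interferon beta at the top to cell markers at the bottom, with 1 point per array and bars at the group means (horizontal axis). Open points are untreated arrays and filled points 6 h arrays. The groups do not overlap for any of the genes drawn, and Ifnb1 and Mlkl have tight 6 h groups while Il6 and Ccl3 are spread.

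NF-kB, the second arm of the response, was followed through the RNA of its subunits, inhibitors and targets, and its activity was not tested. Of 16 subunits, inhibitors and targets, 9 rose and none fell (7 to 10 over the fits without 1 array), with a median change of 0.55. Bcl3, a nuclear IkB protein, rose from 7.54, 7.46 and 7.95 to 9.07, 9.68 and 9.76 (3.61-fold, adjusted p = 9.21e-05). Tnfaip3, or A20, which ends NF-kB signalling, rose from 6.85, 6.89 and 6.58 to 7.81, 8.55 and 8.55 (2.89-fold, adjusted p = 0.000199). Both were lowest among the 6 h arrays on replicate 1, yet above each untreated array. The subunits Rela and Rel changed by 0.28 and 0.34, and the inhibitor Nfkbia by 0.37 (adjusted p = 0.251), and none of the 3 passed. Of 24 immediate early factors 3 rose, led by Atf3, a stress factor that restrains inflammatory genes, at 4.50-fold. That count was 6 without 6 h replicate 1. Fos and Egr1 changed by 0.52 and 0.65 and did not pass.

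Promoter stretches of Ifnb1, Il6, Cxcl10 and Gbp5 are printed below, again from RefSeq on GRCm38.p6. Each holds an NF-kB site, and those of Cxcl10 and Gbp5 hold both elements. In the Ifnb1 and Il6 stretches capitals mark an NF-kB site; in the Cxcl10 stretch they mark, in order, 1 interferon-stimulated response element and 2 NF-kB sites, 1 of which matched in 2 overlapping ways; in the Gbp5 stretch they mark 1 of each. The stretches are chr4:88522881-88522930 on the minus strand (Ifnb1, 136 to 87 bases before the start), chr5:30013050-30013099 on the plus strand (Il6, 64 to 15 bases), chr5:92348963-92349122 on the minus strand (Cxcl10, 233 to 74 bases) and chr3:142496749-142496886 on the plus strand (Gbp5, 185 to 48 bases).
Ifnb1: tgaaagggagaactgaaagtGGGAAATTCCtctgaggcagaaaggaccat
Il6: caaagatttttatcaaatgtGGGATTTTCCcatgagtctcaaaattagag
Cxcl10: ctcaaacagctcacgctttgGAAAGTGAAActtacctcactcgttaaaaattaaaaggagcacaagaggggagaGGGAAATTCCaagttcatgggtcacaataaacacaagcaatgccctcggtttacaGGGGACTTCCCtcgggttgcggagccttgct
Gbp5: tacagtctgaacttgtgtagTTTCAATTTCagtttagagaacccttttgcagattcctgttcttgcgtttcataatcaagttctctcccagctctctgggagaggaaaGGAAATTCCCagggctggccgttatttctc
Over the 250 bases before the start, the NF-kB site was in 7.25% of all promoters, in 8.19% of those of the genes tested and in 12.9% of those of genes that rose. It was in 19.6% of those that rose at least 4-fold and in 9.24% of those that fell. It was in 7 of 12 promoters of the NF-kB list members that rose (58.3%) and in 10 of 21 of the whole list (47.6%). In the nearest 100 bases it was in 3 of 12 of those members and in 6 of 21 of the list. The share there was 3% for all promoters and 3.53% for the genes tested.

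Chemokines, the proteins that draw leukocytes into tissue, held many of the largest rises. Of 15 CXC chemokines 6 rose and none fell, and of 20 CC and other chemokines 8 rose and none fell. The ligands of the receptor CXCR3, which guide activated T and NK cells, led the first group. Cxcl10 read 6.28, 6.10 and 5.94 in untreated skin and 11.85, 12.12 and 12.14 at 6 h, a 61.0-fold difference (log2 5.93, SE 0.24, adjusted p = 7e-09). Cxcl11 rose from 5.68, 5.73 and 5.69 to 9.78, 10.68 and 10.96 (27.4-fold), and Cxcl9, which answers mainly to interferon gamma, 18.6-fold. The groups lay several log2 units apart for each of the 3. The ligands of the neutrophil receptor CXCR2 included Cxcl2, which rose 4.04-fold (adjusted p = 0.00189), and Cxcl1, which rose 2.90-fold (adjusted p = 0.00313), while Cxcl3 and Cxcl5 changed by 0.34 and 0.37 and did not pass.

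In the CC group, the monocyte attractants rose together. Ccl2 read 6.82, 6.77 and 6.96 against 10.69, 11.70 and 11.84 (23.5-fold, adjusted p = 3.37e-08), Ccl7 rose 16.7-fold and Ccl12 by 4.70. Ccl3, a macrophage inflammatory protein, rose from 5.73, 5.40 and 5.46 to 9.48, 10.41 and 11.26 (29.0-fold), its relative Ccl4 by 4.29, and Ccl5, which draws T cells and monocytes, by 3.9. On 6 h replicate 1 the values of Ccl2 and Ccl3 were the lowest of their group and still above the untreated arrays by more than 3 log2 units. The dendritic cell and T cell attractants Ccl17 and Ccl22 changed by 0.03 and 0.35 and did not pass. Chemokine receptors gave few calls: 1 of 20 rose and 1 fell, against 3.38% and 2.71% of all genes. Ccrl2, a receptor that holds the attractant chemerin at the cell surface, rose 8.26-fold (adjusted p = 1.14e-06). Ackr2, a decoy receptor of lymphatic vessels that clears CC chemokines, fell from 7.71, 7.57 and 7.37 to 6.96, 7.07 and 6.97 (0.682 of the untreated level, adjusted p = 0.00725).

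Among 44 cytokines 11 rose and 1 fell, and 8 of these 12 calls were kept without each array in turn (8 to 11 rises over those fits). Il6, which drives fever and the acute phase, read 2.66, 3.74 and 3.81 in untreated skin and 6.00, 7.55 and 7.54 at 6 h. It was the largest rise of the list at 12.3-fold (adjusted p = 5.32e-05), and the lowest array of each group was replicate 1. Tnf rose from 5.99, 5.65 and 5.63 to 7.39, 7.63 and 8.09 (3.87-fold, adjusted p = 6.81e-06), while Il1b, which needs cleavage by an inflammasome, rose 2.24-fold (adjusted p = 0.00289). The groups did not overlap for either gene. Restraining factors rose beside them: Il10, an inhibitor of macrophages, from 4.12, 3.72 and 4.27 to 6.72, 6.34 and 6.29 (5.33-fold, adjusted p = 1.91e-06), and Il18bp, the decoy of IL-18, 2.78-fold. The 1 fall was Il1f8, an IL-36 cytokine of epidermis, at -0.69 (adjusted p = 0.0293), a call lost in 5 of the 12 fits without 1 array (adjusted p up to 0.122, without 6 h replicate 2).

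Il15, which sustains NK and memory T cells, and its presenting receptor rose as a pair: Il15 4.32-fold (adjusted p = 2.24e-07) and Il15ra 2.65-fold (adjusted p = 2.92e-06). Il15ra read 7.65, 7.56 and 7.61 against 8.85, 8.96 and 9.23. Il27, a cytokine of antigen-presenting cells, rose 2.27-fold and Osm, oncostatin M, 3.21-fold, and Osmr, its receptor, by 1.19. In all, 6 of 29 cytokine receptors rose and none fell. Il1a, Il23a and Tslp, the epidermal alarmin, changed by -0.25, 0.23 and -0.73 and did not pass. In the TNF superfamily 5 of 26 rose and none fell, a count that was 3 without untreated replicate 2 or 3 or without 6 h replicate 2 or 3. Tnfsf10, or TRAIL, a ligand that kills infected cells, rose 8.55-fold (adjusted p = 2.22e-07), and Cd40, the receptor through which T cells license dendritic cells, rose from 5.86, 5.64 and 5.66 to 7.99, 8.26 and 9.29 (6.94-fold).

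**Figure D4:**
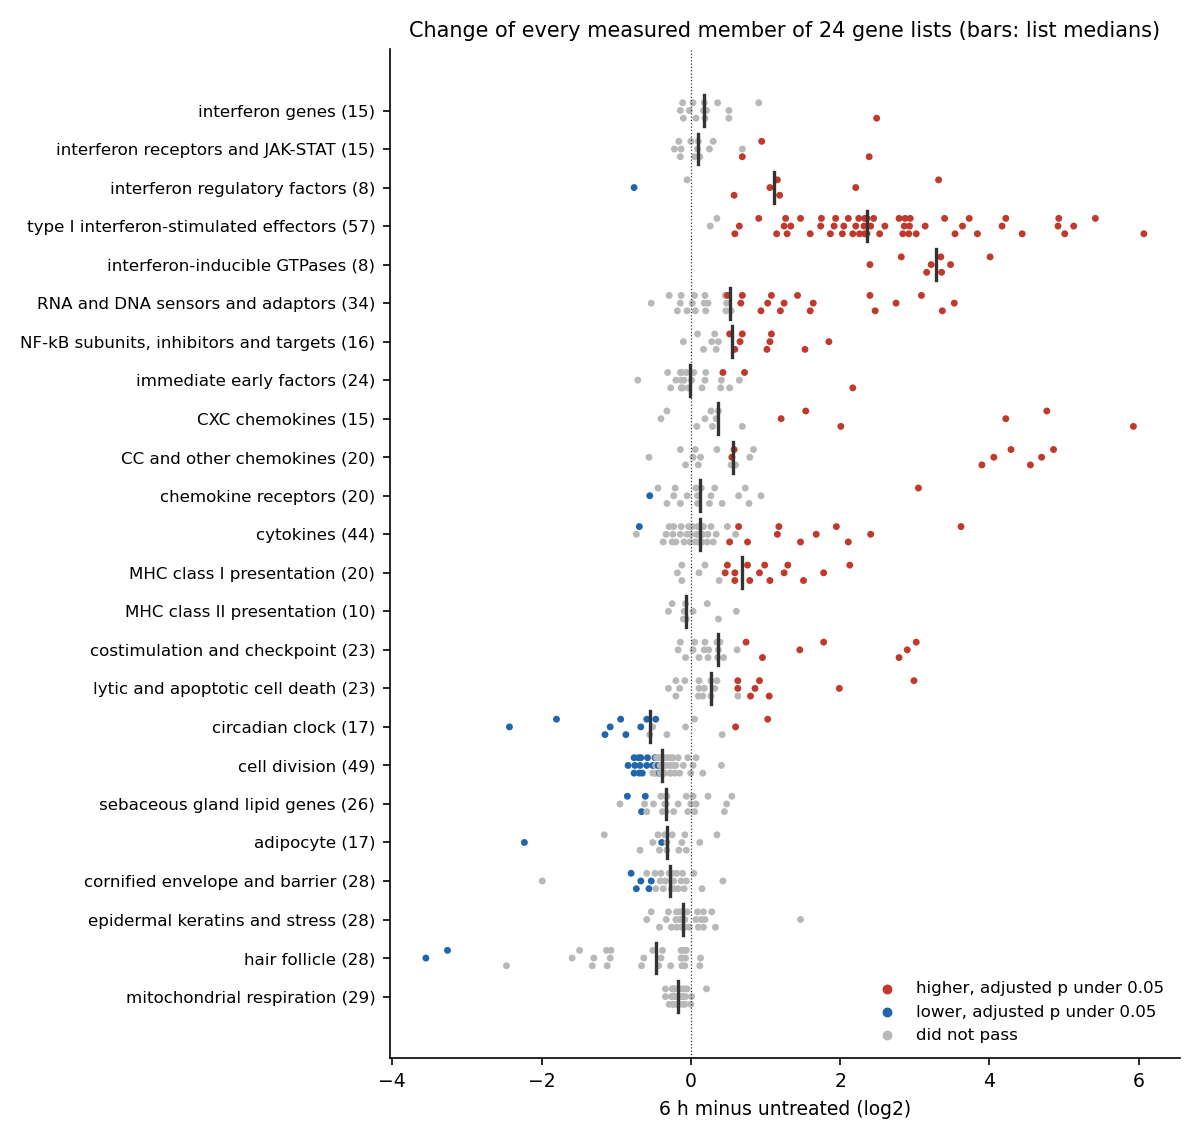
Log2 change at 6 h (horizontal axis, 6 h minus untreated) of each measured member of 24 gene lists, 1 point per gene, coloured by whether it rose, fell or did not pass, with a bar at the list median and the number measured in parentheses. The interferon effector, GTPase and MHC class I lists have 55, 8 and 14 rises, the circadian clock and cell division lists 9 and 15 falls, and the MHC class II list 0 of either.

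The antigen presentation genes that were measured divided by class. Of 20 genes of MHC class I presentation 14 rose and none fell, and 11 of those calls were kept without each array in turn. By contrast, 0 of 10 genes of class II presentation passed in either direction by limma. The lists held 27 and 13 entries. The classical class I genes lack a probe set with 1 symbol, so they have no value here. Tap1, the peptide pump of the endoplasmic reticulum, rose from 8.23, 8.08 and 7.90 to 9.70, 9.45 and 9.59 (2.84-fold, adjusted p = 9.16e-06), and Psmb10, a subunit of the immunoproteasome, 3.45-fold. Nlrc5, the activator of class I genes, rose 2.47-fold, and H2-T24, a non-classical class I gene, 4.38-fold. B2m, the light chain that class I molecules share, was already near the top of the scale at 12.23, 12.15 and 12.16 and read 12.42, 12.31 and 12.39 at 6 h. The groups did not overlap, but the change of 0.19 did not pass (adjusted p = 0.252). Cd74, the chaperone of class II, changed by -0.07 (adjusted p = 0.762) and Ciita, its activator, by -0.06.

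Costimulatory and checkpoint genes rose in 7 of 23 cases, with none falling. Cd274, or PD-L1, the ligand that restrains T cells, read 6.61, 6.74 and 6.62 against 9.41, 9.72 and 9.90 at 6 h (8.13-fold, adjusted p = 6.34e-08). Cd69, which keeps newly activated lymphocytes in place, rose 7.47-fold (adjusted p = 1.01e-06), and Cd86, a ligand of CD28, by 1.46. Cd80, the other ligand of CD28, and Cd83, a marker of mature dendritic cells, changed by 0.36 and 0.62 and did not pass.

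Genes of lytic and apoptotic cell death rose in 8 of 23 cases, with none falling. Mlkl, the pore former of necroptosis, read 4.81, 5.13 and 4.88 against 7.91, 7.94 and 7.96 (7.97-fold, adjusted p = 5.38e-07), with hardly any spread at 6 h. Casp4, the sensor of cytosolic lipopolysaccharide, rose 3.98-fold and Gsdmd, the pore former of pyroptosis that it cleaves, 2.07-fold (adjusted p = 2.11e-05). Casp1 and Casp8 rose by 0.92 and 0.80, while Pycard and Nlrp3, of the classical inflammasome, changed by -0.08 and 0.63 and did not pass.

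Soluble defence proteins gave 4 rises among 16 acute phase and pattern recognition genes. Saa3, a serum amyloid A made in tissues, read 4.16, 4.42 and 3.85 against 8.84, 9.28 and 9.91 (36.7-fold, adjusted p = 1.21e-08), and Ptx3, a pentraxin that tags microbes and dead cells, 4.68, 4.19 and 5.14 against 8.35, 9.66 and 9.98 (25.2-fold). Saa3 continued upward to 24 h, where the mean was 10.9 (a change of -1.56 at 6 h relative to 24 h, adjusted p = 0.0035), whereas Ptx3 was 1.86 higher at 6 h than at 24 h (adjusted p = 0.0152). Lcn2, an iron-trapping protein of neutrophils and epithelia, read 9.47, 7.21 and 6.97 at 6 h and 5.86 to 6.63 untreated, and did not pass (adjusted p = 0.0744). Its highest value was on 6 h replicate 1. In complement, Cfb, the protease of the alternative pathway, rose 3.85-fold, C2 by 1.01 and the receptor C3ar1 by 1.08, and Cd55, which shields host cells from complement, fell by 0.65. Leaving out 1 array gave C3ar1 adjusted p-values of 0.00934 to 0.0611, past 0.05 without 6 h replicate 3 or untreated replicate 2, and Cd55 0.00602 to 0.0833, past it without 6 h replicate 3 or without untreated replicate 1 or 3.

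Of 19 genes of iron, metallothionein and oxidative stress 3 rose and 3 fell, and of 18 enzymes of arginine, tryptophan and itaconate 5 rose and none fell. Mt2, a metallothionein that binds zinc, rose from 11.07, 11.26 and 10.96 to 12.25, 12.54 and 12.47 (2.50-fold, adjusted p = 4.31e-06) and Mt1 1.83-fold. Slc40a1, or ferroportin, the exporter of iron, fell from 6.65 ± 0.27 (SD, n = 3) to 5.77 ± 0.12 (0.542 of the untreated level, adjusted p = 0.00137). Ch25h, which makes the antiviral oxysterol 25-hydroxycholesterol, read 4.87, 4.65 and 4.77 against 8.65, 9.85 and 10.11 (27.4-fold, adjusted p = 3.59e-07), whereas of the 24 genes of the sterol list 2 rose and 1 fell. Acod1, which makes itaconate in macrophages, rose 14.6-fold, Gch1, the first enzyme of tetrahydrobiopterin synthesis, 7.06-fold, and Nos2, the inducible nitric oxide synthase that needs that cofactor, 3.11-fold (adjusted p = 0.00133). Ido1 and Arg1, which break down tryptophan and arginine, changed by 0.38 and -0.47 and did not pass. Ptgs2, or COX-2, rose from 6.48, 6.43 and 6.36 to 7.57, 8.51 and 9.06 (3.88-fold). Of the 24 prostaglandin and leukotriene genes it was the 1 that rose, and 1 fell, the epidermal lipoxygenase Alox12b, by 0.67 on the log2 scale (adjusted p = 0.024). That call was lost when untreated replicate 1 or 3, or 6 h replicate 1 or 2, was left out (adjusted p up to 0.102).

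The vessel wall and matrix showed a few strong rises. Vcam1 and Icam1, on which leukocytes arrest, rose 2.78-fold (adjusted p = 1.07e-05) and 2.72-fold (adjusted p = 0.00173), while Sele, the selectin of early rolling, read 5.79, 5.96 and 5.88 against 5.91, 6.54 and 6.32 and did not pass (adjusted p = 0.14). Timp1, an inhibitor of metalloproteinases, rose from 6.67, 6.11 and 6.68 to 8.91, 9.09 and 9.21 (5.99-fold, adjusted p = 2.41e-06). Mmp13, a collagenase, read 6.29, 6.22 and 5.25 against 8.30, 8.01 and 8.50 (5.09-fold). Its mean was 4.55 at 1.5 h and 5.14 at 24 h, and 6 h was 3.72 above 1.5 h (adjusted p = 7.18e-07) and 3.13 above 24 h (adjusted p = 4.19e-05). Pdgfrb, the growth factor receptor of pericytes and fibroblasts, rose 1.79-fold.

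Cell type markers were counted to show which populations moved with these changes. Of 17 monocyte genes 8 rose and none fell, and the summed level of the list was 12.73 to 12.97 (log2) at 6 h against 11.15 to 11.73 in untreated skin. Ms4a4c rose 14.4-fold, Fcgr4 and Fcgr1, receptors for antibody, 13.2-fold and 8.88-fold, and Plac8 by 2.58. Fcgr1 and Ms4a4c are also known as interferon-induced genes, and how much of the change came from new cells was not tested. Ccr2, the receptor by which inflammatory monocytes leave blood, read 8.40, 7.61 and 8.01 at 6 h and 8.28, 7.73 and 8.18 untreated, overlapping groups with a change of -0.05 (adjusted p = 0.907). Against 24 h it was lower at 6 h (a change of -1.33, adjusted p = 0.0104). The monocyte sum was not the only one without overlap. Langerhans and dendritic cell sums were 11.83 to 11.97 at 6 h against 11.15 to 11.3 untreated. Lymph node sums were 10.27 to 11.85 against 9.45 to 9.74, and B and plasma cell sums 8.21 to 9.48 against 8.11 to 8.19. Keratinocyte sums were lower at 6 h, at 14.39 to 14.58 against 14.6 to 14.66, as were nerve sums, at 11.78 to 11.86 against 11.99 to 12.14.

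Of 22 neutrophil genes 6 rose and none fell (4 to 8 over the fits without 1 array), and the summed levels of the groups overlapped, at 11.25 to 11.86 against 11.01 to 11.36. Clec4e, a receptor of neutrophils and macrophages for damaged cells, rose 4.55-fold and Csf3r, the receptor of G-CSF, 2.18-fold. S100a9, the abundant calprotectin subunit, read 9.53, 7.61 and 8.05 against 7.33, 6.78 and 6.67 and did not pass (adjusted p = 0.0569), and S100a8 changed by -0.42. Among 23 T and NK cell genes 3 rose: Gzmb 4.42-fold and Gzma 3.29-fold, the granzymes of killer cells, and Klrk1, the activating receptor NKG2D, 3.37-fold. Both granzymes were far below their level at 24 h, with changes of -2.79 for Gzmb (adjusted p = 7.01e-08) and -2.62 for Gzma (adjusted p = 2.11e-05). Ncr1, a defining receptor of NK cells, read 3.88, 4.07 and 4.42 against 4.88, 4.87 and 4.64 and did not pass (adjusted p = 0.0739). The summed level of the T and NK list overlapped between the groups, at 11.67 to 11.9 untreated and 11.49 and 11.51 on 6 h replicates 2 and 3, with replicate 1 above them.

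Resident populations gave few calls, but short lists would also give few at the shares of all genes, 3.38% higher and 2.71% lower. These counts do not show that a population stayed unchanged. Of 20 resident dermal macrophage genes 1 rose, Timd4, a receptor for dying cells, 3.32-fold, and 1 fell. That was Cd163, a scavenger receptor for haemoglobin, at -0.77 (adjusted p = 0.0437), a call lost in 9 of the 12 fits without 1 array (adjusted p up to 0.169, without untreated replicate 1), while without 6 h replicate 1 the falls numbered 4. Of 16 Langerhans and dendritic cell genes 1 rose, the interferon-induced Bst2 already described. No B cell, keratinocyte, fibroblast, melanocyte, glandular, erythroid or nerve gene passed in either direction by limma, of 13, 10, 11, 10, 15, 5 and 7 measured. Of 8 lymph node genes 1 rose, Cxcl13, the B cell attractant, 2.32-fold (adjusted p = 0.0348, and 0.0229 to 0.108 over the fits without 1 array), a call that was lost when any of the 6 h arrays, or untreated replicate 2 or 3, was left out.

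The falls were shallower, and among the lists the circadian clock had the largest fraction of its own members falling. The clock is the feedback loop in which CLOCK and BMAL1 drive their own repressors and a set of output factors. Of 17 measured clock genes 9 fell and 2 rose, against 2.71% and 3.38% of all genes, and 7 of the falls and both rises were kept without each array in turn. Nr1d1, the repressor REV-ERB alpha, read 10.68, 10.49 and 10.30 in untreated skin and 8.04, 7.89 and 8.27 at 6 h. The groups were more than 2 log2 units apart, and the level was 0.186 of the untreated one (adjusted p = 7.24e-05). Dbp, an output factor that follows BMAL1 closely, read 8.71, 8.54 and 8.59 against 6.88, 6.80 and 6.77, at 0.288 of the untreated level (adjusted p = 8.44e-08). The related Tef and Hlf, the second REV-ERB Nr1d2, and the period gene Per3 fell to 0.521, 0.548, 0.450 and 0.473 of the untreated level.

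The 2 clock genes that rose were Arntl and Nfil3. Arntl, which encodes BMAL1 and is repressed by REV-ERB, read 6.67, 6.59 and 6.51 against 7.12, 7.29 and 7.17 (1.52-fold, adjusted p = 0.0016), and Nfil3, a repressor of Dbp targets that cytokines also induce, rose 2.04-fold. Per2 fell by 0.67 on the log2 scale, while Clock, Per1 and Cry1 changed by 0.05, -0.32 and 0.42 and did not pass. At 1.5 h and 24 h Nr1d1 had means of 10.02 and 10.02, and 6 h differed from them by -1.95 (adjusted p = 0.000589) and -1.96 (adjusted p = 0.00286). The untreated biopsies carry no clock time in the sources used here, so hours of the day and hours after injection cannot be told apart. The E-box CACGTG, the element that CLOCK and BMAL1 bind, was in 6 of 20 promoters of the list, against 6.02% of all promoters, and in 2 of 9 of the members that fell (22.2%), both of them starts of Tef. In the nearest 100 bases it was in 2 of 20 of the list, in none of the 9 that fell and in 3.17% of all promoters. For the genes tested the shares were 6.99% over 250 bases and 3.78% in the nearest 100. The 2 Tef stretches, with the E-box in capitals, are chr15:81802526-81802571 (147 to 102 bases before its start) and chr15:81811256-81811301 (158 to 113 bases), on the plus strand of GRCm38.p6.
Tef, first start: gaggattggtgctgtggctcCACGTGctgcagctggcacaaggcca
Tef, second start: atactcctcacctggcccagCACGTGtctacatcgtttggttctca

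**Figure D5:**
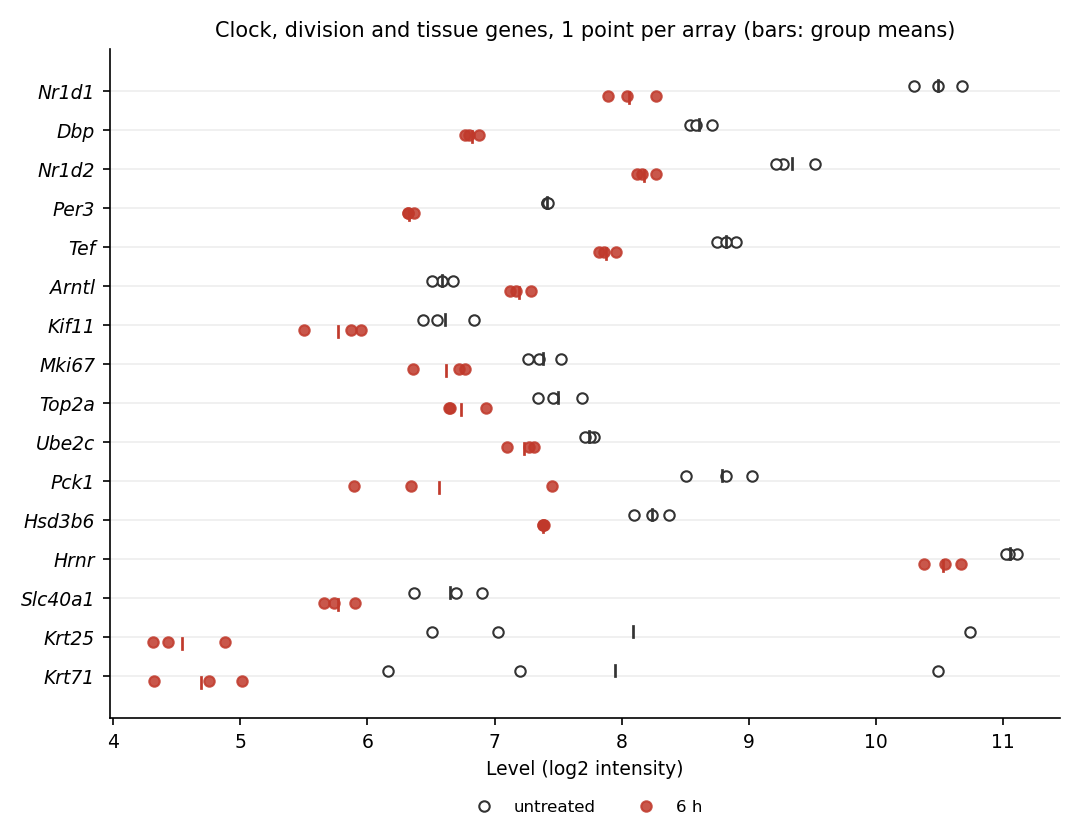
Log2 value of clock, cell division and tissue genes with 1 point per array and bars at the group means (horizontal axis), open points for untreated and filled points for 6 h arrays. Each gene drawn is lower at 6 h except Arntl, which is higher. Nr1d1 and Dbp have tight groups, while Krt25 and Krt71 are spread by untreated replicate 2, at 10.74 and 10.49.

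Genes of cell division fell without exception among those that passed: 15 of 49 fell and none rose, and the median change of the list was -0.39 against -0.04 for all genes. The count ranged from 8 to 16 over the fits without 1 array, with 8 without 6 h replicate 2 and 9 without untreated replicate 1 or 2, and 8 of the 15 calls were kept in each of them. Kif11, the motor that separates the spindle poles, read 6.44, 6.84 and 6.55 against 5.87, 5.50 and 5.95, at 0.560 of the untreated level (adjusted p = 0.00192). Ccna2, cyclin A, read 7.62, 7.86 and 7.57 against 7.24, 6.77 and 7.03 (0.629, adjusted p = 0.00574), and Mki67, the proliferation marker, 7.35, 7.52 and 7.26 against 6.72, 6.36 and 6.77 (0.591, adjusted p = 0.00586). In each of the 3 genes every untreated array was above every 6 h array. Top2a, which untangles chromosomes, fell to 0.592 by its brighter probe set, while its other one, at a mean of 3.05, changed by 0.07 and did not pass. Ube2c, which marks mitotic proteins for destruction, fell to 0.7 of the untreated level. Tk1, Mcm5 and Rrm2, which serve DNA synthesis, changed by 0.41, -0.51 and -0.48 and did not pass.

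Mitotic genes share a cell cycle homology region, TTTGAA, close to the start, through which the DREAM complex and FOXM1 act. Stretches of 2 members whose fall was kept without each array are shown, from RefSeq on GRCm38.p6, with the element in capitals. They are chr19:37376343-37376381 (Kif11, 39 to 1 bases before the start) and chr2:164769880-164769925 (Ube2c, 49 to 4 bases), both on the plus strand, and both spell the element on the opposite strand.
Kif11: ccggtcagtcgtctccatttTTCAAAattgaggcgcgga
Ube2c: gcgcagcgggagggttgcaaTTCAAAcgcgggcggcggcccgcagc
In the nearest 100 bases the element was in 6 of 14 promoters of the members that fell (42.9%), in 9 of 41 of the whole list, in 5.77% of all promoters and in 5.55% of those of all genes that fell. Over 250 bases it was in 7 of 14 of the members that fell, in 11 of 41 of the list and in 16% of all promoters. The share was 13.5% for all genes that fell and 13.4% for the genes tested. In the nearest 100 bases it was 4.35% for the genes tested.

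Hair follicle genes gave the largest falls by size, and 1 array set much of that size. Krt25 and Krt71, keratins of the inner root sheath of growing hair, read 6.51, 10.74 and 7.03, and 6.16, 10.49 and 7.2, in untreated skin against 4.31 to 4.88 and 4.32 to 5.01 at 6 h. Untreated replicate 2 stood several log2 units above the other two, and the groups did not overlap. The changes were -3.55 (adjusted p = 0.024, and 0.0105 to 0.0788 over the fits without 1 array) and -3.26 (adjusted p = 0.0272, and 0.00504 to 0.0968), and both calls were lost without 6 h replicate 1, 2 or 3. Without untreated replicate 2 the changes of Krt25 and Krt71 were -2.23 and -1.99 (adjusted p = 0.0228 and 0.0216). They were the 2 falls among 28 hair follicle genes, whose median change of -0.47 became -0.09 without untreated replicate 2. The falls numbered 6 without untreated replicate 1 and 3 without untreated replicate 3, where the median was -0.70 and -0.68, and 0 without any one of the 6 h arrays. Krt27 and Tchh, of the same sheath, had the same high value on that array, 9.84 and 9.79, and did not pass.

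Other tissue programmes gave few calls, to be read beside the 2.71% of all genes that fell and the 3.38% that rose. Of 28 cornified envelope and barrier genes 5 fell and none rose, a count of 2 without 6 h replicate 2, of 3 without untreated replicate 3 and of 2 with cyclic loess scaling. Tgm5, a transglutaminase that cross-links the envelope, read 6.77, 6.72 and 6.76 against 6.10, 6.29 and 6.17 (0.677 of the untreated level, adjusted p = 0.0028). None of 28 epidermal keratin and stress genes passed by limma, and Krt16 and Krt6b, which mark wounded epidermis, changed by 0.33 and 0.28. Of 26 sebaceous gland lipid genes 3 fell, with Hsd3b6, a steroid dehydrogenase, at 8.37, 8.10 and 8.24 against 7.39, 7.38 and 7.38 (0.554, adjusted p = 0.00199). Of 17 adipocyte genes 2 fell. The count was 6 without 6 h replicate 1 and 3 without 24 h replicate 3, and it was 1 with quantile or cyclic loess scaling and in 8 of the 12 fits without 1 array, among them those without any one untreated array or 6 h replicate 2. Pck1, which feeds glycerol into fat cell triglyceride, read 9.03, 8.51 and 8.82 against 7.45, 5.89 and 6.34 (0.214, adjusted p = 0.00172), with 6 h replicate 1 nearest to untreated skin. No gene of skeletal muscle or mitochondrial respiration passed, of 30 and 29. Of 20 collagens 1 fell, Col14a1, which coats collagen fibrils, by 0.49 on the log2 scale (adjusted p = 0.0458). Its call was lost in 8 of the 12 fits without 1 array (adjusted p up to 0.146, without 6 h replicate 2) and with quantile or cyclic loess scaling.

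The remaining genes with large falls belong to no list above. Ednrb, the endothelin B receptor of melanocytes and endothelium, fell from 8.74, 8.31 and 8.91 to 7.75, 6.67 and 7.14 (0.362 of the untreated level, adjusted p = 0.00133). Efhd1, a calcium-binding protein of mitochondria, fell from 7.92, 7.65 and 7.99 to 6.66, 6.41 and 6.28 (0.379, adjusted p = 6.38e-05), with both groups tight and apart. Carns1, which makes carnosine, and Zfp931, a zinc finger gene, fell to 0.434 and 0.396 of the untreated level. The calls of Nnat, Akr1c18, Pdk4, Fkbp14, Npr3 and Chp2, also among the 15 largest falls at -1.81, -1.43, -1.18, -1.19, -1.16 and -1.18, were each lost without 1 or more single arrays, 6 h replicate 2 among them for each, with adjusted p up to 0.162, 0.142, 0.121, 0.106, 0.0977 and 0.063.

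The neighbouring times placed these values in the course of the response. From 1.5 h, 1090 genes were higher at 6 h (5.47%) and 1556 lower (7.8%). From 24 h, 281 were higher at 6 h (1.41%) and 404 lower (2.03%). The first 2 counts were 560 and 389 without 6 h replicate 2 and 632 and 509 without 1.5 h replicate 2, and the number lower was 771 without 1.5 h replicate 1 and 1029 without 6 h replicate 3. Those against 24 h were 89 and 53 without 6 h replicate 2, 173 and 131 without 6 h replicate 3, 155 and 217 without 24 h replicate 1 and 112 and 76 without 24 h replicate 3, and the number lower was 243 without untreated replicate 3. Of the 57 interferon effectors 54 were higher at 6 h than at 1.5 h, and 29 were higher and 1 was lower at 6 h than at 24 h. Irf7 and Oas3 had means of 10.49 and 8.40 at 24 h, and 6 h differed from them by -0.39 and 0.31, which did not pass (adjusted p = 0.354 and 0.279). Cxcl10 and Ifih1 were 1.95 and 1.32 higher at 6 h than at 24 h (adjusted p = 0.000974 and 4.64e-05), while Cxcl9 and Ccl5 differed from 24 h by -0.06 and -0.39 and did not pass. Of the 17 clock genes 10 were lower at 6 h than at 1.5 h and 4 lower than at 24 h, and of the 29 mitochondrial respiration genes 18 were lower at 6 h than at 1.5 h. How these list counts against 1.5 h and 24 h move without single arrays was not tested.

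Among the microRNA genes on the array, 6 of 300 passed, against 6.09% of all genes tested. The array reads their precursor or host transcript and not the mature RNA. Mir20b, named here after its values were seen, read 3.09, 3.02 and 2.87 against 3.84, 3.66 and 3.84 (1.73-fold, adjusted p = 0.00264), and its cluster neighbour Mir106a 2.53, 2.70 and 2.53 against 3.02, 3.05 and 2.92 (1.33-fold, adjusted p = 0.036). The groups did not overlap for either, though the values lie near the bottom of the scale. Every value printed for the 2 genes is under 4, and both calls were lost with a floor of 4 set on all values. That of Mir106a was also lost with arrays centred on their medians and with quantile or cyclic loess scaling. The call of Mir106a was lost when any of the 6 h arrays, or untreated replicate 1 or 3, was left out (adjusted p 0.0335 to 0.126 over the fits without 1 array). The mature 5p products, from RefSeq on GRCm38.p6, lie on the minus strand at chrX:52742159-52742181 and chrX:52742541-52742563, and share the seed in capitals, bases 2 to 8.
miR-20b-5p: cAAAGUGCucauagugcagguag
miR-106a-5p: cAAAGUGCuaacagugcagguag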

How the data were processed

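The analysis started from the authors' deposited log2 values, 1 per probe set and array. Per the submitters' processing notes, they come from RMA as run in Affymetrix Expression Console 1.1. RMA subtracts background, quantile-normalizes and summarises probes, which compresses changes of dim probe sets. No detection p-values were used, so a low value is not known to be above background. Of 35556 probe sets, 21789 had 1 gene symbol in the platform annotation, 1621 had several and 12146 were not listed; genes without a probe set of their own, such as Isg15, have no value here. The probe set of highest mean over the 12 arrays stood for each gene. A group-means model was fitted with limma 3.58.1 in R 4.3.3 to all 12 arrays, with moderated variances and Benjamini-Hochberg adjustment over 19938 genes, two-sided, at 0.05. The fit was tested on simulated data. Arrays, not reads, limit the precision, with 3 per group; an exact permutation test of 3 against 3 cannot go below 0.1.

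Genes named are the 15 largest rises and 15 largest falls that passed with groups that do not overlap, and members of 57 gene lists (1102 genes measured); others are said to be chosen after their values were seen. The members and lists were chosen with earlier results of these data known. The summed level of a list is the log2 of its summed linear values. Alternatives covered scaling, dim probe sets, the variance model, the probe set rule, the threshold, a replicate block and each array left out.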

Additional observations from a re-analysis of the deposited data

Results flagged for a closer look

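Mmp13, a collagenase, moved in opposite directions at 2 times against the same untreated arrays. Its log2 change was 2.35 at 6 h and -1.37 at 1.5 h (limma adjusted p = 0.0213 for the latter), and the difference between the 2 times had an adjusted p of 7.18e-07. Both changes share the untreated arrays, which read 6.29, 6.22 and 5.25.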

How the results depend on the processing

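The 674 rises and 541 falls against untreated skin moved with some choices. Falls numbered 308 with cyclic loess scaling (699 rises), 854 without dim probe sets (592 rises) and 892 with array weights (811 rises). They numbered 613 with arrays centred on their medians (576 rises) and 325 when each probe set was tested by itself (721 rises). At an adjusted p of 0.01 there were 540 changes (421 higher, 119 lower), and at a change of at least 2-fold 325 (298 higher, 27 lower). Over the fits that each left out 1 array, there were 712 to 1364 changes and 214 to 658 falls. Against 1.5 h these fits gave 949 to 2951 changes (560 to 1201 higher, 389 to 1750 lower) and against 24 h 142 to 877 (89 to 302 higher, 53 to 575 lower). With the replicate block there were 648 rises and 488 falls, and Col14a1 lost its call. The deviations of same-numbered untreated and 6 h arrays correlated at 0.0772, 0.162 and -0.118. No pairing by number was seen, though so few arrays could miss one. The list counts without 6 h replicate 1 or untreated replicate 2, given beside the results they change, were chosen after seeing the data. Top2a reversed to 0.07 with the probe set of highest variance. The number of arrays, and the unknown background of dim probe sets, limit the precision.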
